A study of Homo sapiens with 18 samples.

Results

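Of 6 genes of the aryl hydrocarbon receptor pathway examined in pioglitazone-treated lung cancer cells, 4 could be tested, and of these only CYP1B1 passed the test against vehicle at 24 and 48 h. It fell 2.09-fold at 24 h and 1.64-fold at 48 h, while the receptor AHR, its partner ARNT and the target gene TIPARP did not pass the test at either time. The set comprised 6 genes, AHR, ARNT, AHRR, TIPARP, CYP1A1 and CYP1B1, of the 20046 genes with a named probe, and 7 probes of the 47323 on the array carried their names. AHR had 2 probes and each other gene had 1. The genes were chosen by symbol, and CYP1B1 also because it was among the strongest falls at 12 h. Values at 12 h are therefore given for all members as a description, with no test.

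Cells of NCI-H2347, an established human line labelled lung cancer, were given 50 µM pioglitazone, an insulin-sensitising drug and PPARγ agonist, or the DMSO vehicle. All cultures were kept in RPMI medium with 5% fetal bovine serum, received drug or vehicle 24 h after plating, and were harvested 12, 24 or 48 h later. RNA of the 6 groups, pioglitazone and vehicle at each time, was hybridised to Illumina HumanHT-12 v4 BeadChips, with 3 arrays for each group and 18 in all. Whether the 3 arrays of a group came from separate cultures is not in the labels. The p-values therefore set a difference only against the spread within groups of these samples of a single cell line, and that spread may be technical.

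The aryl hydrocarbon receptor is a ligand-activated transcription factor of the bHLH-PAS family. It rests in the cytoplasm with HSP90 chaperones and, once bound by a planar aromatic pollutant or by an indole or tryptophan metabolite, enters the nucleus, pairs with ARNT and binds DNA at sites with the core GCGTG. Among its best known targets are CYP1A1 and CYP1B1, monooxygenases that oxidise aromatic hydrocarbons and oestradiol, and AHRR and TIPARP, which feed back to restrain the receptor. In lung these enzymes are known for the activation of compounds in tobacco smoke.

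Promoter windows of classical receptor targets in the set are shown to make the receptor's core motif visible in genes whose probes were detected on 1 (CYP1A1), 0 (AHRR) and 18 (TIPARP) of the 18 arrays. The windows run from 250 bases before to 50 bases after a gene's start and come from RefSeq, assembly GRCh38.p14, written 5′ to 3′ along the gene, with GCGTG or its reverse complement CACGC in capitals. For AHRR and TIPARP the window of the first of their listed starts is printed.
CYP1A1 (chr15:74725479-74725778, minus strand): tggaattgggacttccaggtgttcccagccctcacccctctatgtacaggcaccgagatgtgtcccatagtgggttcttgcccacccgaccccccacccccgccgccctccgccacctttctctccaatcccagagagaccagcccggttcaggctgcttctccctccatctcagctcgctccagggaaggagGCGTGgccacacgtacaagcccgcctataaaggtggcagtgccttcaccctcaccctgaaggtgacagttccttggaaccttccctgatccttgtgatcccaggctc
AHRR (chr5:321464-321763, plus strand): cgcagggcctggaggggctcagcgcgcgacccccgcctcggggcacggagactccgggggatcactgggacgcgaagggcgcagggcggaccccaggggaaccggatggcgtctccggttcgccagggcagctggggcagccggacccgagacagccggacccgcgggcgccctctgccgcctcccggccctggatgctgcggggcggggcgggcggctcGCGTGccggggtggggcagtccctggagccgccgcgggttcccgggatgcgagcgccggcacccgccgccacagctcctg
TIPARP (chr3:156674340-156674639, plus strand): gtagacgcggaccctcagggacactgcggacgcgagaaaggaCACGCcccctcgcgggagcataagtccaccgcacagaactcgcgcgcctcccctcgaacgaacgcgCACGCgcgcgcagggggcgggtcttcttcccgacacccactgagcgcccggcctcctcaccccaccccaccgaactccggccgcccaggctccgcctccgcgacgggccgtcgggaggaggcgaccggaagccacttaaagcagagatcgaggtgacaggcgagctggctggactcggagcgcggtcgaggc
Of the 6 genes 5 matched an entry, with 8 windows in all, and the member without a match was CYP1B1. The CYP1A1 window held 1 core, the printed AHRR window 1 and the printed TIPARP window 2, and the AHR window at chr7:17298402-17298701 held 1. The ARNT window and the other 2 TIPARP windows held 0, and the second AHRR window held 2. A core occurred on either strand in 36.5% of the 35116 windows of this length in the table, so a match here is a description of the letters and not of a binding site.

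Each array detected 17040 to 18880 probes, detection meaning a p-value under 0.01 against the array's negative controls. The median intensity of undetected probes fell in a higher class, 138 to 153, on 7 arrays: every 24 h array, together with the third pioglitazone array of 48 h. The remaining 11 arrays had medians of 102 to 113. Comparisons of drug with vehicle at 12 and 24 h thus lay within 1 level of background. At 48 h values without the third pioglitazone array are given for the tested members, with AHR read from its brighter probe only. Such values are also given for listed genes where the absence of that array changed a call, and for some others whose value moved. Log2 values below are background-corrected, quantile-normalized signals. All 5 epithelial markers listed (EPCAM, KRT8, KRT18, KRT19 and CDH1) were detected on all 18 arrays, as were the lung genes NKX2-1, NAPSA and SLC34A2. The surfactant genes SFTPB and SFTPC were detected on 0 arrays, SFTPD on 13, the leukocyte genes PTPRC and CD3E and the endothelial genes PECAM1 and CDH5 on 0, CD14 on 17 and VWF on 10. COL1A1, COL1A2 and CD68 were detected on all 18, COL3A1 on 1, DCN on 2 and LUM on 0.

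AHR, the receptor itself, was detected by both of its probes on all 18 arrays. On the brighter probe its log2 signal at 12 h was 10.98, 10.84 and 11.15 with pioglitazone, against 10.76, 10.83 and 10.69 with vehicle. All 3 pioglitazone arrays lay above all 3 vehicle arrays, a separation that 33.0% of the 11680 genes tested showed at 12 h. At 24 h the brighter probe gave 10.83, 10.47 and 10.39 with pioglitazone, against 10.25, 10.54 and 10.08 with vehicle, and at 48 h it gave 11.13, 11.28 and 10.78, against 11.15, 10.81 and 11.45. The groups overlapped at both later times, and the log2 fold change of pioglitazone over vehicle was 0.28 at 24 h (SE 0.17, limma adjusted p = 0.267) and −0.07 at 48 h (SE 0.17, limma adjusted p = 0.783). Without the third pioglitazone array the 48 h value turned to 0.07 (limma adjusted p = 0.816). The 95% confidence intervals ran from −0.09 to 0.64 and from −0.44 to 0.29, so changes up to those sizes were not excluded.

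The dimmer AHR probe differed in detail. Its log2 signal was 8.37 ± 0.16 with pioglitazone and 8.07 ± 0.18 with vehicle at 12 h, 7.51 ± 0.15 and 7.55 ± 0.10 at 24 h, and 7.73 ± 0.20 and 8.07 ± 0.10 at 48 h (SD, n = 3 each). At 48 h its 3 pioglitazone values, 7.61 to 7.96, lay below the 3 vehicle values, 7.97 to 8.18. Such a separation held for 37.2% of the genes tested at that time. The probe's log2 fold change of −0.34 missed the threshold (limma adjusted p = 0.0732 over all kept probes). At 24 h its log2 fold change was −0.04 (limma adjusted p = 0.878 over all kept probes). Neither probe was called at 24 or 48 h, and their signs at 24 h were opposite.

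ARNT, the bHLH-PAS partner that AHR needs to bind DNA, gave a signal close to background. Its probe was detected on 9 of 18 arrays, at 1.06 to 1.24 times the median intensity of undetected probes. Detection was on 2, 1 and 2 pioglitazone arrays and on 1, 1 and 2 vehicle arrays at 12, 24 and 48 h. Its log2 signal was 5.05 ± 0.36 with pioglitazone and 5.05 ± 0.27 with vehicle at 24 h, and 5.35 ± 0.21 and 5.37 ± 0.08 at 48 h (SD, n = 3 each). At 24 h the log2 fold change was 0.00 (95% interval −0.44 to 0.43, limma adjusted p = 0.994). At 48 h it was −0.02 (95% interval −0.45 to 0.41, limma adjusted p = 0.955). Without the third pioglitazone array it was 0.05 (limma adjusted p = 0.898). Changes inside those intervals were not excluded, and at such a signal the scale understates a fold change.

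AHRR, the repressor that competes with AHR for ARNT, was detected on 0 of 18 arrays. Its intensity was 0.91 to 1.11 times the median of undetected probes, and its lowest detection p-value was 0.045. It could not be tested, and no fold change is given for it. At 24 h its log2 signals were 4.88, 4.53 and 4.55 with pioglitazone and 4.33, 4.44 and 4.36 with vehicle. These groups did not overlap, as held for 45.2% of the genes tested at 24 h, but all 6 values belong to a probe not well above background.

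TIPARP, a mono-ADP-ribosyltransferase that modifies AHR and limits its activity, was detected on all 18 arrays at intensities of 2368 to 9766. At 12 h its log2 signal was 11.74, 11.84 and 11.70 with pioglitazone, against 11.87, 11.78 and 11.90 with vehicle. At 24 h it was 12.09, 11.78 and 11.93 with pioglitazone, against 12.05, 12.07 and 12.09 with vehicle. The groups overlapped at both times, and the log2 fold change at 24 h was −0.14 (SE 0.10, 95% interval −0.35 to 0.07, limma adjusted p = 0.330).

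At 48 h TIPARP had log2 signals of 12.30, 12.19 and 12.38 with pioglitazone, against 11.94, 12.10 and 12.05 with vehicle. All 3 pioglitazone arrays lay above the vehicle arrays, as in 37.2% of the genes tested at that time, and the log2 fold change of 0.26 (SE 0.10, 95% interval 0.05 to 0.47) missed the threshold (limma adjusted p = 0.0552). Without the third pioglitazone array it was 0.21 (limma adjusted p = 0.126), and without the second it was 0.31 and passed (limma adjusted p = 0.0388). It also passed with an offset of 50 (limma adjusted p = 0.042), with no background correction (0.016) and with an intensity trend (0.025).

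CYP1A1, the monooxygenase most often used as a readout of AHR activity, was detected on 1 of 18 arrays, vehicle replicate 2 at 48 h, with a detection p-value of 0.0091. On that array its log2 signal was 5.41, against 4.54 and 4.42 on the other vehicle arrays at 48 h and 4.38, 4.72 and 4.65 on the pioglitazone arrays. At 12 h it gave 4.41, 4.49 and 4.46 with pioglitazone and 4.63, 4.65 and 4.78 with vehicle, and at 24 h 4.58, 4.42 and 4.32 with pioglitazone and 4.49, 4.42 and 4.45 with vehicle. No pioglitazone array detected it. The probe was at 0.91 to 1.16 times the median of undetected probes, so it was not tested and no fold change is given.

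**Figure D1:**
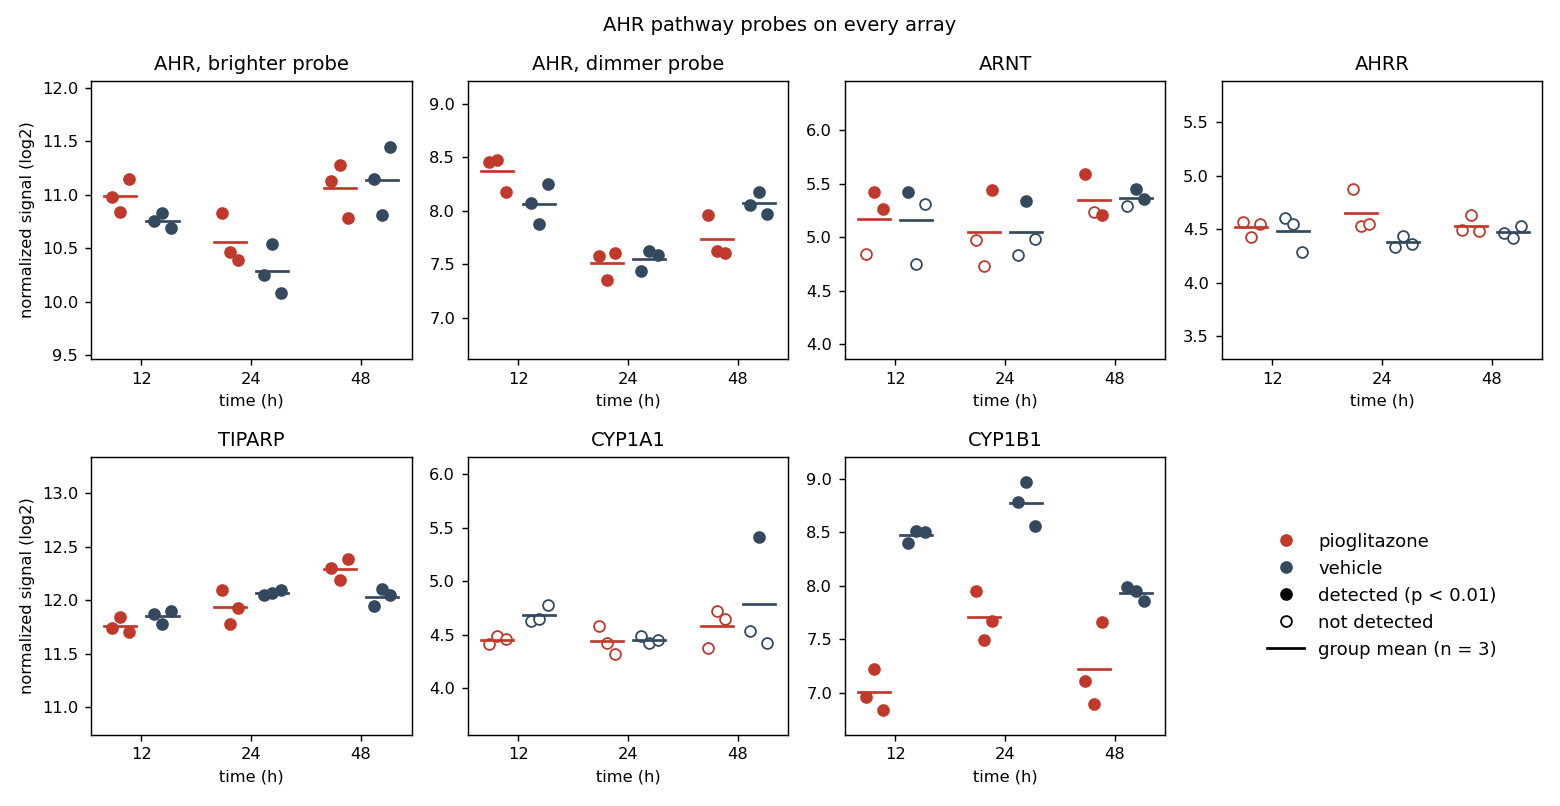
Normalized log2 signal of the 7 probes on every array, with pioglitazone left of vehicle at 12, 24 and 48 h on the x axis. Each point is an array, open where the probe was not detected, and lines are group means (n = 3); every panel spans the same height on the log2 scale. CYP1B1 lies lower on all pioglitazone arrays than on the vehicle arrays of the same time. Such a separation, in either direction, held for 33.0%, 45.2% and 37.2% of the genes tested at 12, 24 and 48 h. AHRR has 0 filled points and CYP1A1 has 1.

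CYP1B1, a monooxygenase of aromatic hydrocarbons and oestradiol like CYP1A1, was detected on all 18 arrays. Its log2 signal at 12 h was 6.96, 7.22 and 6.84 with pioglitazone, against 8.40, 8.51 and 8.50 with vehicle. All pioglitazone values lay well below all vehicle values, and 33.0% of the 11680 genes tested showed a separation in either direction. The difference was −1.46 on the log2 scale (SE 0.17) or 2.76-fold, which ranked 3 from the lowest of those genes. This is the contrast that chose the gene, in which 4.48% of the genes tested were called lower, and nothing is read from it. With no background correction the difference was −0.95.

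At 24 h, in arrays outside the contrast that ranked it, although the gene was chosen with results at every time known, CYP1B1 gave log2 signals of 7.95, 7.49 and 7.67 with pioglitazone, against 8.78, 8.97 and 8.56 with vehicle. The groups again did not overlap, as in 45.2% of the genes tested at 24 h. The log2 fold change was −1.06 (SE 0.17, 95% interval −1.43 to −0.70, limma adjusted p = 0.000293), 2.09-fold lower with an interval of 1.63 to 2.69. It ranked 69 from the lowest of 11680 genes, where 12.8% were called lower. In the authors' processed table the values were 216, 151 and 175 with pioglitazone and 402, 462 and 339 with vehicle. The signal comes from whole cultures, in which fewer expressing cells and less RNA per cell cannot be told apart.

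At 48 h CYP1B1 gave 7.11, 6.89 and 7.66 with pioglitazone, against 7.99, 7.95 and 7.86 with vehicle. The groups did not overlap, as in 37.2% of the genes tested at 48 h. The value of pioglitazone replicate 3 came close to the vehicle values. The log2 fold change was −0.71 (SE 0.17, 95% interval −1.07 to −0.35, limma adjusted p = 0.00456), 1.64-fold lower with an interval of 1.28 to 2.10. It ranked 676 from the lowest, where 15.4% of genes were called lower. Without pioglitazone replicate 3 the log2 fold change was −0.93 (limma adjusted p = 0.000221). The call was lost with median scaling (−0.38, limma adjusted p = 0.539) and in a fit of the groups compared alone (limma adjusted p = 0.0518), and with no background correction the value was −0.43 (limma adjusted p = 0.00434).

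**Figure D2:**
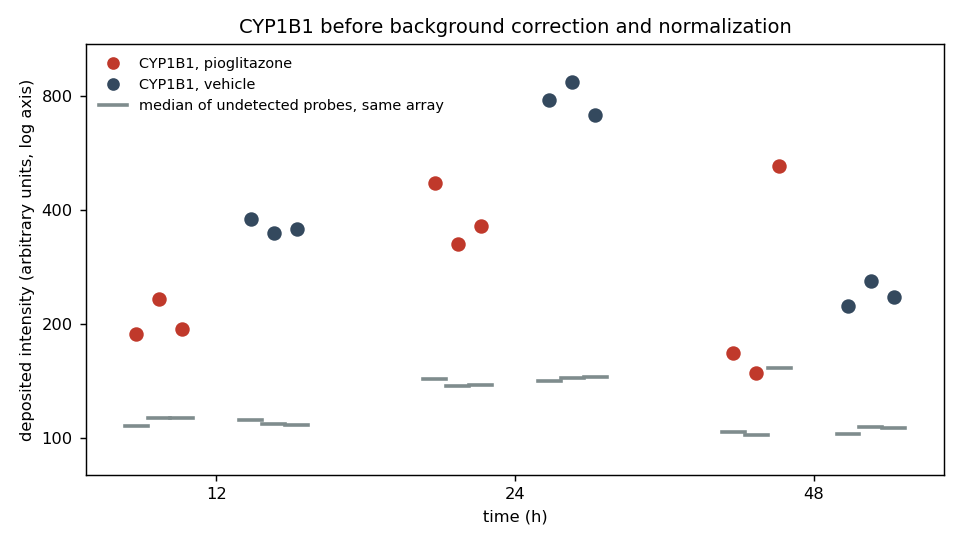
Deposited intensity of the CYP1B1 probe on a log axis, before any background correction, with pioglitazone left of vehicle at each time; each point is an array and each grey bar is the median of the undetected probes on that array. At 12 and 24 h the pioglitazone intensities, 189 to 233 and 327 to 472, lie below those of vehicle, 349 to 379 and 714 to 872. At 48 h the third pioglitazone array, with 523 on a background of 153, lies above the vehicle arrays.

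The deposited intensities show how close to background these values were. CYP1B1 stood at 1.72 to 2.05 times the median of undetected probes with pioglitazone at 12 h, and at 3.20 to 3.39 times with vehicle. The ratios were 2.37 to 3.29 and 4.91 to 6.03 at 24 h. At 48 h they were 1.62, 1.46 and 3.41 with pioglitazone and 2.18, 2.43 and 2.23 with vehicle. The third pioglitazone array at 48 h, with 3.41, was thus above vehicle on this scale and below it only after normalization between arrays.

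Of the 4 members that could be tested, 1 passed at 24 h and 1 at 48 h, CYP1B1 in both cases, while 23.3% and 29.7% of all genes tested passed in either direction. A count of 1 in 4 is close to that background, and the count by itself is no result about the set. The change of the pioglitazone effect from 24 to 48 h was tested directly. By limma 0 of the 4 members passed, where 3.41% of all genes did, 1.25% higher and 2.16% lower, and 1, TIPARP, had an unadjusted p-value under 0.05 (difference 0.40, SE 0.14, limma adjusted p = 0.131). For CYP1B1 the difference was 0.35 (SE 0.24, 95% interval −0.16 to 0.86, limma adjusted p = 0.433), so its smaller fall at 48 h was not distinguishable from that at 24 h. It was 0.13 without pioglitazone replicate 3 at 48 h. For AHR the difference was −0.35 (SE 0.24, limma adjusted p = 0.442). For TIPARP it passed with array weights (0.39, limma adjusted p = 0.0359).

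**Figure D3:**
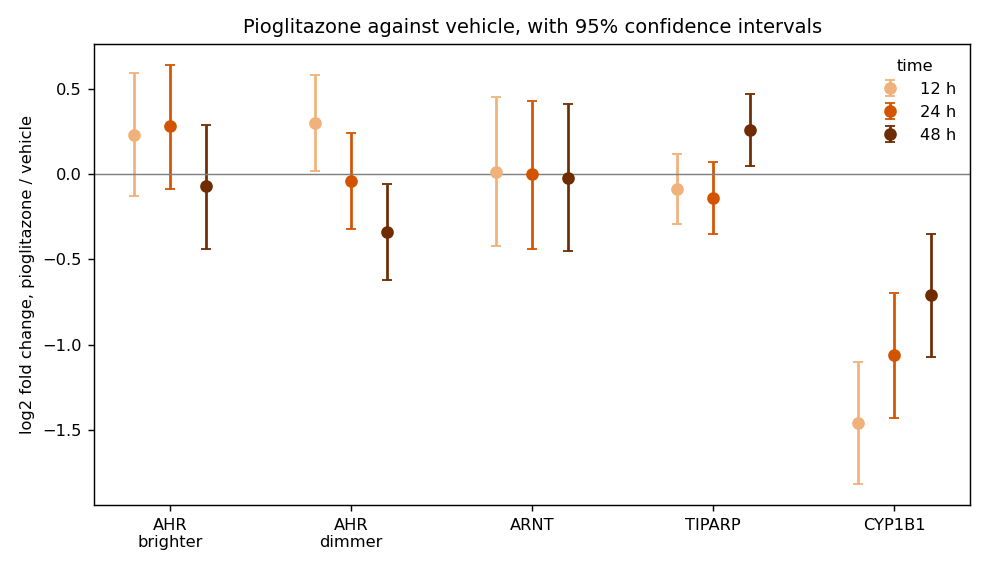
Log2 fold change of pioglitazone over vehicle for the 5 probes that could be tested, at 12, 24 and 48 h from left to right, with 95% confidence intervals of the limma fit (n = 3 per group). Only for CYP1B1 do the intervals lie below 0 at all 3 times, around −1.46, −1.06 and −0.71; the values at 12 h are a description, since CYP1B1 was chosen on them.

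The order of the CYP1B1 group means, from the highest, was vehicle at 24 h (8.77 ± 0.21), vehicle at 12 h (8.47 ± 0.06), vehicle at 48 h (7.93 ± 0.07), pioglitazone at 24 h (7.70 ± 0.24), pioglitazone at 48 h (7.22 ± 0.40) and pioglitazone at 12 h (7.01 ± 0.20; SD, n = 3 each). By their means all vehicle groups stood above all pioglitazone groups. The order includes the 12 h groups, on which CYP1B1 was chosen, and is therefore a description. The values of neighbours in this order overlapped from vehicle at 48 h downward, and did not overlap among the vehicle groups. For TIPARP the pioglitazone group at 48 h (12.29 ± 0.09) stood above the next, vehicle at 24 h (12.07 ± 0.02), without overlap, and all further neighbours overlapped. For AHR on the brighter probe the 48 h groups were highest and the 24 h groups lowest, and pioglitazone and vehicle at 12 h were the only neighbours that did not overlap. All neighbours in the order of ARNT overlapped.

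The members were also compared between 24 and 48 h within each treatment. In vehicle, AHR was higher at 48 h than at 24 h by 0.85 on the log2 scale (SE 0.17, limma adjusted p = 0.00148), and its dimmer probe gave 0.52 (limma adjusted p = 0.00749 over all kept probes). CYP1B1 was lower at 48 h by −0.84 (SE 0.17, limma adjusted p = 0.00151). These 2 of 4 members passed where 38.1% of all genes did, with 22.0% of all genes lower at 48 h. Their groups did not overlap, as in 55.5% of all genes. TIPARP (−0.04, limma adjusted p = 0.782) and ARNT (0.32, limma adjusted p = 0.237) did not pass. All 24 h arrays had the higher background and the vehicle arrays at 48 h the lower, so that time and background level cannot be told apart. Median scaling moved the median of all genes to −0.77 in this comparison. On that scale AHR stood at 0.06 and TIPARP at −0.71, both above the median of all genes, and CYP1B1 at −1.72, below it. The AHR call was lost there (limma adjusted p = 0.835) and TIPARP passed as lower (limma adjusted p = 0.0232).

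With pioglitazone, 3 of the 4 members passed from 24 to 48 h, where 33.3% of all genes did, 14.9% higher and 18.5% lower. AHR was higher at 48 h by 0.50 (limma adjusted p = 0.0343), TIPARP was higher by 0.36 (limma adjusted p = 0.00964) and CYP1B1 was lower by −0.49 (limma adjusted p = 0.0375). The 24 and 48 h values overlapped for AHR and CYP1B1 and did not for TIPARP, as in 35.8% of all genes. The dimmer AHR probe gave 0.22 (limma adjusted p = 0.225 over all kept probes). Pioglitazone replicate 3 was the only 48 h array with the higher background of the 24 h arrays. Without it the values were 0.64, 0.31 and −0.71 and all 3 passed. In that fit time and background level cannot be told apart. On replicate 3 itself AHR (10.78) and CYP1B1 (7.66) lay within the 24 h pioglitazone values, 10.39 to 10.83 and 7.49 to 7.95. TIPARP (12.38) lay above its 24 h values, 11.78 to 12.09. The AHR call was lost without either of the other 48 h arrays or without replicate 2 or 3 of the 24 h arrays, where it gave 0.39 to 0.46. The CYP1B1 call was lost without either of the other 48 h arrays or without replicate 1 or 3 of the 24 h arrays, where it gave −0.50 to −0.32. The TIPARP call was lost without the second 24 h array, where it gave 0.28 (limma adjusted p = 0.0543). With the replicate number as a block the CYP1B1 call was also lost (limma adjusted p = 0.0533).

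The genes whose signal ran most like that of a member over the 18 arrays were taken by Pearson correlation, as a description, since the arrays share 6 groups and 1 normalization. For CYP1B1 they were RERG (r = 0.937), a Ras-related gene regulated by oestrogen, ADGRF1 (0.929), an adhesion receptor gene, UTP11 (0.910), a ribosome biogenesis gene, AAGAB (0.910) and the homeobox gene SIX4 (0.905). RERG had log2 fold changes of −1.19, −1.52 and −0.97 at 12, 24 and 48 h and ADGRF1 of −1.57, −0.61 and −0.96, while UTP11, AAGAB and SIX4 ran between −0.49 and −0.21. For TIPARP they were ARMCX3 (r = 0.940), FBXL5 (0.937) and SNTB1 (0.924). For AHR they were SPDYE8 (0.954), SDHAP1 (0.953) and PDE4C (0.947), the first 2 of which have near-identical copies or a parent gene, so their probes may read more than 1 locus. For ARNT, near background, the closest were SCFD2 (0.708), EZH1 (0.648) and COX15 (0.610).

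Other genes of the pathway were counted by list. In the receptor complex, its chaperones, coactivators and interacting proteins, 12 of 14 listed genes had a named probe and 11 were tested. At 24 h 1 rose and 1 fell (median −0.11, against −0.02 for all genes) and at 48 h 2 rose and 0 fell (median 0.03, against 0.01). The share of all genes that passed was 23.3% at 24 h and 29.7% at 48 h. EP300, a histone acetyltransferase and coactivator, rose by 0.66 at 24 h (limma adjusted p = 0.0373), and RB1, the retinoblastoma protein gene, fell by 0.62 (limma adjusted p = 0.0376). At 48 h CUL4B, a ubiquitin ligase scaffold reported to work with AHR, rose by 0.53 (limma adjusted p = 0.00677, second probe 0.64) and HSP90AB1, a chaperone that holds the unliganded receptor, by 0.45 (limma adjusted p = 0.0143). Without pioglitazone replicate 3 HSP90AB1 stood at 0.26 and its call was lost (limma adjusted p = 0.053). At 12 h, where 8.80% of all genes passed, 0 of these 11 did, with HSP90AB1 and EP300 both at 0.30.

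Among the bHLH-PAS relatives, which share ARNT's or AHR's dimerisation domain, 11 of 16 were tested. At 12 h 1 rose and 1 fell, at 24 h 1 rose and 3 fell (median −0.02), and at 48 h 3 rose and 2 fell (median −0.07), where 8.80%, 23.3% and 29.7% of all genes passed. ARNT2, a close relative of ARNT, had log2 signals of 4.89, 4.86 and 5.16 with pioglitazone, against 5.68, 5.65 and 5.71 with vehicle, at 12 h. It was not above background on any of those pioglitazone arrays and fell at least 1.37-fold (limma adjusted p = 0.0236). At 24 h it fell by 0.70 (limma adjusted p = 0.012), and at 48 h it stood at −0.06 (limma adjusted p = 0.851), or at −0.33 without pioglitazone replicate 3 (limma adjusted p = 0.101). EPAS1, which encodes the hypoxia factor HIF-2α and also pairs with ARNT, rose at all 3 times, by 0.55, 0.62 and 0.82 (limma adjusted p = 0.0108, 0.00218 and 0.00011). HIF1A rose by 0.81 and NPAS2 by 0.96 at 48 h. Without pioglitazone replicate 3 these were 0.68 and 0.63, EPAS1 was 0.70, and all 3 still passed (limma adjusted p = 0.0164, 0.00832 and 0.000472). The clock genes CLOCK (−0.88, second probe −0.34) and PER2 (−0.68) fell at 24 h. PER3 (−0.62) and SIM2, at least 1.19-fold, fell at 48 h. SIM2 was detected only on the 3 vehicle arrays at 48 h and entered the tests through them. Its fall, counted among the 2 at 48 h, is therefore a description. Without pioglitazone replicate 3 at 48 h the SIM2 call was lost (−0.29, limma adjusted p = 0.133).

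Of 21 other genes listed as AHR targets, 20 had a named probe and 10 were tested. The textbook xenobiotic genes CYP1A2, ALDH3A1, UGT1A1, UGT1A6, GSTA1 and GSTA2 did not reach the detection filter. NQO1, a quinone reductase that answers to both AHR and NRF2, stood at 0.06, −0.08 and 0.01 at 12, 24 and 48 h, with limma adjusted p = 0.542 and 0.957 at the later times. At 12 h 0 rose and 1 fell (IL6, −0.80), where 8.80% of all genes passed. At 24 h 1 rose and 3 fell (median −0.21, against −0.02 for all genes), where 10.5% of all genes rose and 12.8% fell. At 48 h 1 rose and 4 fell (median −0.18, against 0.01), where 14.3% of all genes rose and 15.4% fell. PTGS2, the inducible cyclooxygenase, had log2 signals of 8.30, 8.14 and 8.17 with pioglitazone, against 9.44, 9.78 and 9.53 with vehicle, at 24 h. Its groups were far apart, and it fell by 1.38 (limma adjusted p = 6.47e-07, second probe −1.55) and at 48 h by 0.95 (limma adjusted p = 1.07e-05). EREG, an EGF receptor ligand gene, fell by 0.95 at 24 h, and SLC7A5, an amino acid transporter gene, by 0.55 and 0.77 at 24 and 48 h. Without pioglitazone replicate 3 the 48 h value of SLC7A5 was −0.57 and still passed (limma adjusted p = 0.00124). IL6, not above background on any pioglitazone array at 48 h, fell at least 1.22-fold there. CYP2S1, a further cytochrome P450, fell by 0.36 at 48 h (−0.51 without pioglitazone replicate 3), although its second probe gave 0.02. SCIN, which encodes an actin-severing protein, rose by 0.58 at 24 h and 0.59 at 48 h, and without pioglitazone replicate 3 the 48 h value was 0.57 and just missed the threshold (limma adjusted p = 0.0516). Without that array EREG passed at 48 h (−0.63, limma adjusted p = 0.0107), against −0.39 with it (limma adjusted p = 0.134). Inflammatory targets in this list are regulated by other pathways too.

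Of 12 genes for the supply of kynurenine and indole ligands, 8 were tested. KYNU, kynureninase, rose by 0.41 at 24 h and 0.50 at 48 h (limma adjusted p = 0.00549 and 0.000708, second probe 0.63 and 0.76), and AADAT, a kynurenine aminotransferase, fell by 0.47 and 0.56 (limma adjusted p = 0.0276 and 0.00798). No further gene of this list passed at those times, and at 12 h 0 rose and 2 fell, KYAT1 (−0.71) and AADAT (−0.67). Of all genes tested 8.80%, 23.3% and 29.7% passed at 12, 24 and 48 h. The medians at 24 and 48 h were 0.09 and −0.07. The tryptophan dioxygenase gene TDO2 stood at 0.14 and 0.08.

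Of 14 genes for P450 electron supply and oestrogen metabolism, 9 were tested. POR, the reductase that passes electrons to all microsomal cytochromes P450 including CYP1B1, had log2 signals of 9.39, 9.49 and 9.61 with pioglitazone, against 8.48, 8.76 and 8.69 with vehicle, at 24 h. It rose there by 0.85 (SE 0.15, limma adjusted p = 0.000752), while CYP1B1 fell. At 12 h POR was the 1 gene of this list that passed, at 0.64 (limma adjusted p = 0.0145), and at 48 h it stood at 0.19 (limma adjusted p = 0.384). At 24 h it was the only gene of the list that passed (median 0.10), and at 48 h 0 of 9 did by limma (median 0.11). The shares of all genes that passed were 8.80%, 23.3% and 29.7% at 12, 24 and 48 h. At 48 h CYB5A stood at 0.33 (limma adjusted p = 0.136) and CYB5B at −0.27 (limma adjusted p = 0.0662). CYB5B passed without pioglitazone replicate 3.

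In the PARP family, the relatives of TIPARP, 12 of 14 listed genes were tested. At 12 h 0 rose and 2 fell, PARP14 (−0.54) and PARP1 (−0.50), where 8.80% of all genes passed. At 24 h 2 rose and 2 fell (median −0.08), where 23.3% of all genes passed, and at 48 h 2 rose and 4 fell (median −0.10), where 29.7% did. PARP1, the main nuclear poly-ADP-ribose polymerase of DNA repair, fell by 0.58 and 0.41 at 24 and 48 h (limma adjusted p = 0.000175 and 0.0018), and PARP2 by 0.59 at both (second probe −0.56 and −0.60). PARP12 rose by 0.34 and 0.48, PARP4 by 0.41 at 24 h, and PARP9 by 0.40 at 48 h, although the second PARP9 probe gave −0.06. PARP10 (−0.74) and PARP8 (−0.45) fell at 48 h. Without pioglitazone replicate 3 PARP10 stood at −0.54 and still passed (limma adjusted p = 0.00813), and the PARP8 call was lost (−0.30, limma adjusted p = 0.116).

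**Figure D4:**
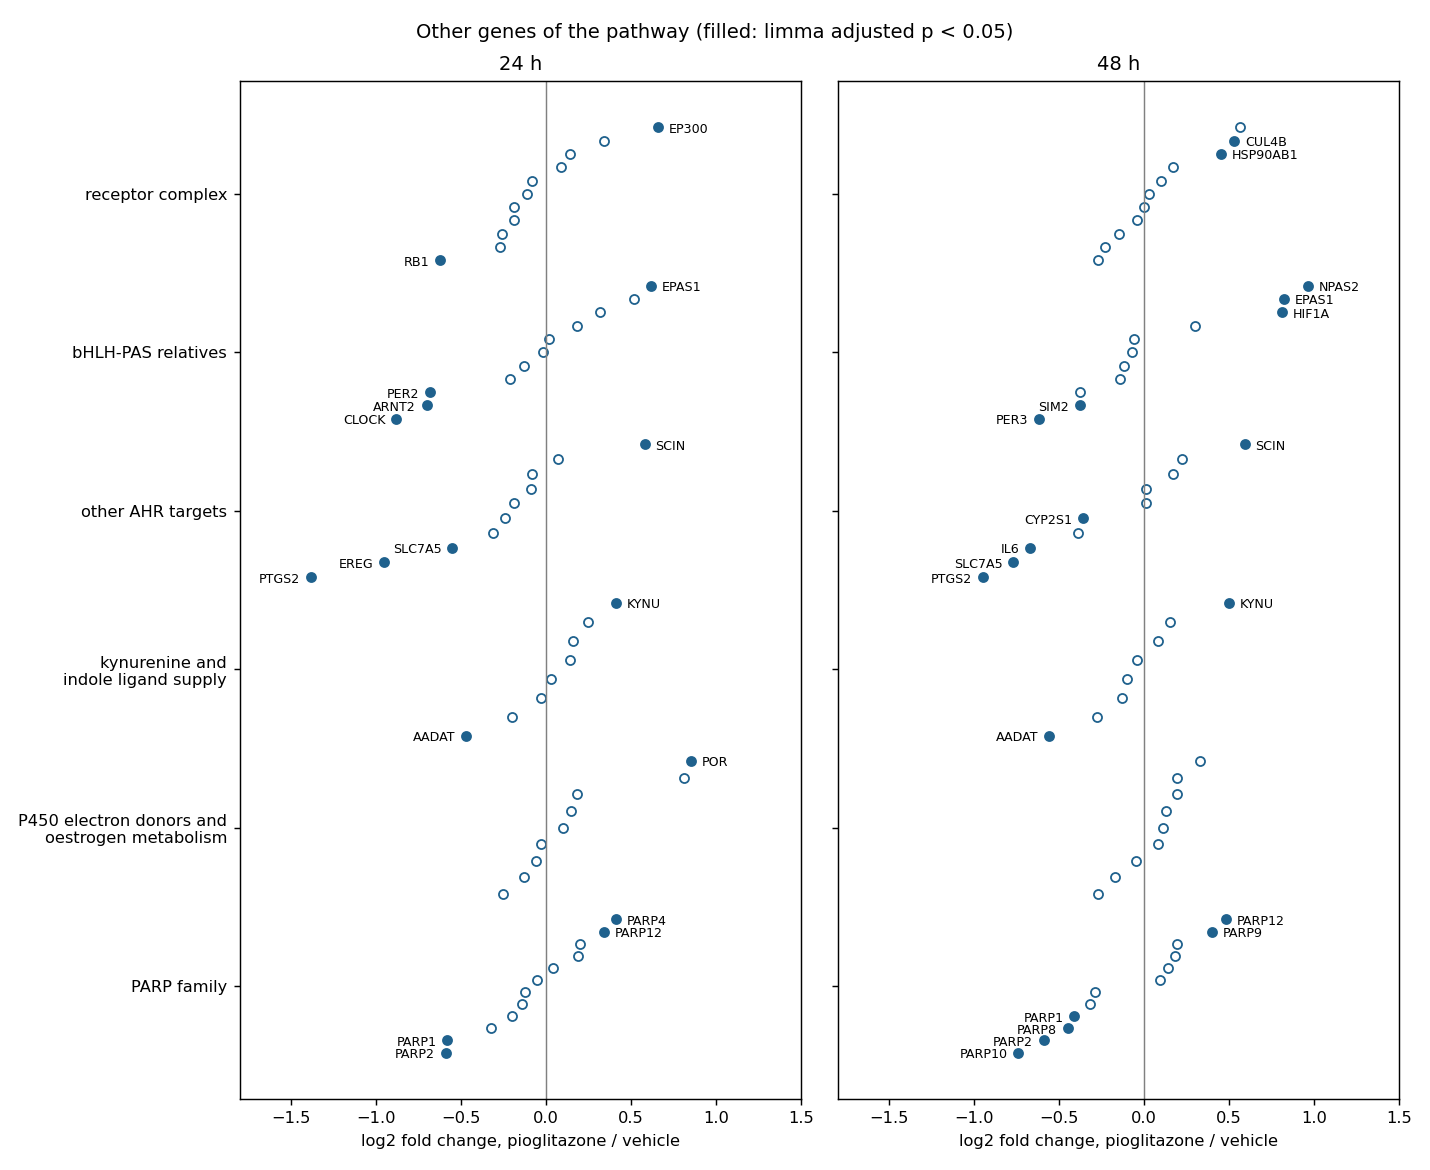
Log2 fold change of pioglitazone over vehicle for every tested gene of the 6 lists at 24 h (left) and 48 h (right), ordered by value within a list; filled points passed a limma adjusted p of 0.05 and are named. Genes lie on both sides of 0 in every list, from PTGS2 at −1.38 to POR at 0.85 at 24 h, and from PTGS2 at −0.95 to NPAS2 at 0.96 at 48 h (0.63 without pioglitazone replicate 3).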

How the data were processed

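Signals of 18 BeadChip arrays were handled in GenomeStudio, per the submitters' processing notes, which state neither a version nor settings. The authors deposited an unnormalised intensity for each probe with a detection p-value, in steps of 1 in 770, and a second table of processed intensities that share 1 set of values across arrays and so are quantile-normalised after a background correction that no source used here describes. The unnormalised intensities were corrected, normalised and taken to log2 with neqc of limma 3.58.1 (R 4.3.3), with an offset of 16 and negative controls inferred from the detection p-values. A fold change on this scale understates the change of dim probes.

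A probe entered the tests if detected at p under 0.01 on 3 or more arrays (20032 probes), and each gene was read from its kept probe of highest mean signal (11680 genes). In the platform annotation 30113 probes carry 1 symbol, 17202 carry none and 8 carry several; RefSeq changed 0 symbols and held no gene for 39 named probes. The array files name no genome build; coordinates are those of RefSeq windows only. A limma fit of the 6 group means (12 residual degrees of freedom) gave moderated tests, adjusted by Benjamini-Hochberg over all genes, or over all kept probes for the dimmer AHR probe, with a threshold of 0.05. Precision is limited by the number of arrays, and the median SE of a log2 fold change was 0.15. A gene not above background on any array of a group is given as at least N-fold, with that group's value on each array raised to the lowest signal of any detected probe where it lay beneath it.

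The members and the 6 lists were chosen with earlier results of these data known. Named were all member probes, the 3 genes (5 for CYP1B1) most correlated with each tested member, and in each list up to 4 genes per direction past the threshold, or up to 2 where none passed. NQO1 and TDO2, and in the opening of the target list the genes below detection, were named after their values were seen. Some listed genes are not reported here. Correlations of same-numbered pioglitazone and vehicle arrays around their group means were −0.26 to 0.09 over 9 pairs, so replicate numbers were not taken as pairs. Alternatives covered the offset, background correction, scaling, the authors' values, the filter, probe choice, weights, variance trend, the samples fitted, the replicate block and each array left out.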

Additional observations from a re-analysis of the deposited data

How the results depend on the processing

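The fall of CYP1B1 at 24 h passed under every alternative run, with log2 fold changes of −1.29 to −0.77 over the 11 settings and −1.19 to −0.95 with each array left out in turn. With median scaling it passed only narrowly (limma adjusted p = 0.0452). At 48 h the CYP1B1 value ran from −0.93 to −0.55 with an array left out and passed each time. The 48 h call was lost with median scaling (−0.38) and with only the groups compared (−0.71, limma adjusted p = 0.0518). The count of members past the threshold at 48 h, 1, became 2 with an offset of 50, with no background correction and with an intensity trend, and 0 with median scaling and with only the groups compared; with an array left out it was 1 to 2. For the change of the effect from 24 to 48 h the count of 0 became 1 with array weights. From 24 to 48 h with pioglitazone the count of 3 became 0 with median scaling and with only the groups compared and 1 without a filter on detection, and was 1 to 3 with an array left out. The cause was not tested.

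Under median scaling the all-gene median stood at 0.11, −0.20 and 0.26 for pioglitazone against vehicle at 12, 24 and 48 h and at −0.29 from 24 to 48 h with pioglitazone, and relative to those shifts CYP1B1 kept its direction. Genes past the threshold numbered 2725 at 24 h (448 with median scaling, 5780 with array weights), 3469 at 48 h (554 with median scaling), 398 for the change of the effect (11 and 1167), 4445 in vehicle over time (7313 with median scaling) and 3890 with pioglitazone over time (1107 and 6417, and 6011 with every kept probe). At 12 h they numbered 1028 (23 and 2527). The share of calls that were higher was 82.6%, 25.0% and 61.6% at 12, 24 and 48 h with median scaling, against 49.1%, 45.0% and 48.1%, and 0%, 1.07% and 12.8% against 36.7%, 42.1% and 44.6% in the other 3 comparisons.

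Same-numbered arrays were taken to share only a number: of 9 pioglitazone arrays 3 correlated best with the vehicle array of their own number. With the replicate block CYP1B1 gave −1.06 at 24 h and −0.71 at 48 h, both past the threshold, and of the member calls the block changed only that of CYP1B1 over time with pioglitazone. ARNT has no value under the filter that asks for detection on all 3 arrays of a group. List counts without pioglitazone replicate 3 at 48 h were chosen after seeing the data; at 12 and 24 h that array enters only the estimate of the spread, and without it the counts risen and fallen at 24 h were 2 and 2 in the receptor complex, 2 and 3 in the bHLH-PAS list, 1 and 4 among the targets and 2 and 1 in the P450 list. At 12 h they were 1 and 0 in the receptor complex, 0 and 3 among the targets, 1 and 2 in the kynurenine list and 2 and 0 in the P450 list. At 12 and 24 h the lists not given for a time had the same counts with and without it. At 48 h, where that array enters the contrast itself, the counts without it were 1 and 0 in the receptor complex. They were 3 and 1 in the bHLH-PAS list, 0 and 5 among the targets, 0 and 1 in the P450 list and 2 and 3 in the PARP family. In the kynurenine list they stayed at 1 and 1. Signals near background limit ARNT, AHRR and CYP1A1 most.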
